A study of Mus musculus with 12 samples.

Results

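Imprinted growth genes were followed in quadriceps RNA of a mouse model of Pompe disease. The group held 10 genes, H19, Igf2, Dlk1, Meg3, Rian, Peg3, Cdkn1c, Grb10, Mest and Plagl1, of the 15344 genes in the expression tables, and all 10 were present. They were chosen by name as an imprinted network around H19, with their levels in these groups already known, so their values and differences are given as a description. Where members are said to pass the thresholds applied to all genes, this too describes them and is not a test of the choice.

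Genomic imprinting leaves 1 parental copy of a gene active and the other silent, through DNA methylation placed in the germ line. Many imprinted genes act on growth before birth, and several are silenced together in muscle and other organs soon after birth. H19 and Igf2 share enhancers on distal chromosome 7, with H19 read from the maternal copy and Igf2 from the paternal copy. On chromosome 12, Dlk1 is read from the paternal copy and the noncoding RNAs Meg3, Rian and Mirg from the maternal copy. In adult muscle H19 is among the few of these RNAs that stay abundant, and it is raised when fibres regenerate.

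RNA came from the quadriceps of 12 mice on a C57BL/6 background, aged 6 months, with 4 mice in each of 3 groups. WT mice were untreated. KO mice were knocked out for acid alpha-glucosidase (GAA), the lysosomal enzyme missing in Pompe disease, and received PBS at 2 months. AAV mice carried the same knockout and received AAV2/8-LSPhGAApA, which expresses human GAA from a promoter active in liver, by tail vein at 2 months. The treated knockout mice were male, while the sex of the WT mice was not given in the sources used here. Human GAA made in the liver reaches muscle only through the blood, and the RNA is that of whole muscle.

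Values are normalized counts, meaning reads per gene divided by 1 size factor per library. Reads counted over the 15344 genes lay between 32299356 and 47379737 in the WT libraries, 31225360 and 40846896 in the KO libraries and 22122233 and 31974197 in the AAV libraries. The 8 fast-fibre and muscle markers, among them Acta1 and Ckm, were present in every library. The targeted gene went against the labels. Gaa had normalized counts of 342.9, 14640.2, 323.8 and 460.3 in the libraries labelled WT 1 to 4. It had 12151, 13074.5, 11936 and 12895 in those labelled KO, and 946.8, 587, 499.6 and 9854.3 in those labelled AAV. The libraries labelled WT and KO differed in Gaa with p = 0.1429, and those labelled AAV and KO with p = 0.02857, by exact two-sided permutation tests of 4 against 4, for which 0.02857 is the smallest p that can be reached. Gaa was thus high in all libraries labelled KO, in WT 2 and in AAV 4. These counts are for the whole gene, and whether the disrupted part is still transcribed was not tested. By limma on log2(value + 1), the log2 fold change of Gaa was 3.75 for KO against WT and -3.28 for AAV against KO. Without WT 2 and AAV 4 it was 5.07 and -4.26, so leaving these libraries out did not bring Gaa nearer to the labels. Groups below are named by their labels, each direction rests on those labels, and each member's values are also given without WT 2 and AAV 4. Whether libraries or columns labelled WT and KO were exchanged was not tested, and if they were, each direction in KO against WT would turn and the values of AAV against KO and AAV against WT would change places.

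H19 is the host of miR-675, and several of its neighbours in the network also carry microRNAs, so that a level of the host RNA bears on the precursor. Sequences are from RefSeq on GRCm38.p6, and capitals mark the seed, bases 2 to 8, which pairs with targets. Mature microRNAs were not measured. miR-675 lies in an exon of H19 (chr7:142577112-142577133 and chr7:142577078-142577099, minus strand), miR-483 in an intron of Igf2 (chr7:142654968-142654989 and chr7:142654932-142654952, minus strand), miR-770 in an exon of Meg3 (chr12:109563710-109563731, plus strand), miR-370 in an intron of Rian (chr12:109618305-109618326, plus strand) and miR-335 in an intron of Mest (chr6:30741314-30741336, plus strand).
miR-675-5p: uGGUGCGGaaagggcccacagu
miR-675-3p: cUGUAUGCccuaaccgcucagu
miR-483-5p: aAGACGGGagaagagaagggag
miR-483-3p: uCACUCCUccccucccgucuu
miR-770-5p: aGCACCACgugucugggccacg
miR-370-3p: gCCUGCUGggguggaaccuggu
miR-335-5p: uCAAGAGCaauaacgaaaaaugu
These 7 seeds differ from each other. Among the mature microRNAs whose hairpin the RefSeq table places within a member or Mirg, the only seed held by more than 1 was GGUUGCC, shared by miR-453 and miR-496a-5p of Mirg.

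The H19 RNA showed the widest range of the group. H19 (ENSMUSG00000000031, a long noncoding RNA, chromosome 7, 142575529 to 142578143, minus strand, GRCm38) had normalized counts of 73199.9, 83378.5, 28386.7 and 104553 in WT 1 to 4. It had 6573.1, 8341.2, 8931 and 5902 in KO 1 to 4. It had 45094.1, 23560.9, 13645.3 and 62770.8 in AAV 1 to 4. Every KO library was below every WT library and every AAV library, while the AAV and WT libraries overlapped. The log2 fold change, from limma on log2(value + 1), was -3.15 ± 0.35 (SE, n = 4 and 4) for KO against WT, or 8.9-fold lower. It was 2.07 ± 0.41 for AAV against KO, or 4.21-fold higher, and -1.08 ± 0.52 for AAV against WT. H19 alone took 0.213% ± 0.102 (SD, n = 4) of the reads counted over the 15344 genes in WT, 0.0213% ± 0.00484 in KO and 0.122% ± 0.0848 in AAV libraries. Without WT 2 and AAV 4 the log2 fold changes were -3.04, 1.73 and -1.30.

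Igf2, the growth factor that shares enhancers with H19, followed it with a smaller range. Igf2 (ENSMUSG00000048583, chromosome 7, 142650766 to 142666816, minus strand) had 1977.2, 2459.9, 757.2 and 3656.3 in WT. It had 581.7, 778.2, 623.2 and 728.6 in KO and 1445.8, 927.3, 829.1 and 1725.3 in AAV libraries. All AAV libraries were above all KO libraries, but WT 3 fell within the KO range. The log2 fold change of Igf2 was -1.51 ± 0.39 for KO against WT, 0.80 ± 0.23 for AAV against KO and -0.70 ± 0.44 for AAV against WT. With WT 2 and AAV 4 left out it was -1.39, 0.62 and -0.77, and Igf2 no longer passed both thresholds in KO against WT. The normalized count of H19 was 34.3 ± 4.09 times that of Igf2 in WT, 11.1 ± 2.56 times in KO and 27.4 ± 8.54 times in AAV libraries (mean ± SD, n = 4). The ratio, not scaled to length, ranged from 28.6 to 37.5 in WT and from 8.1 to 14.3 in KO, without overlap.

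**Figure D1:**
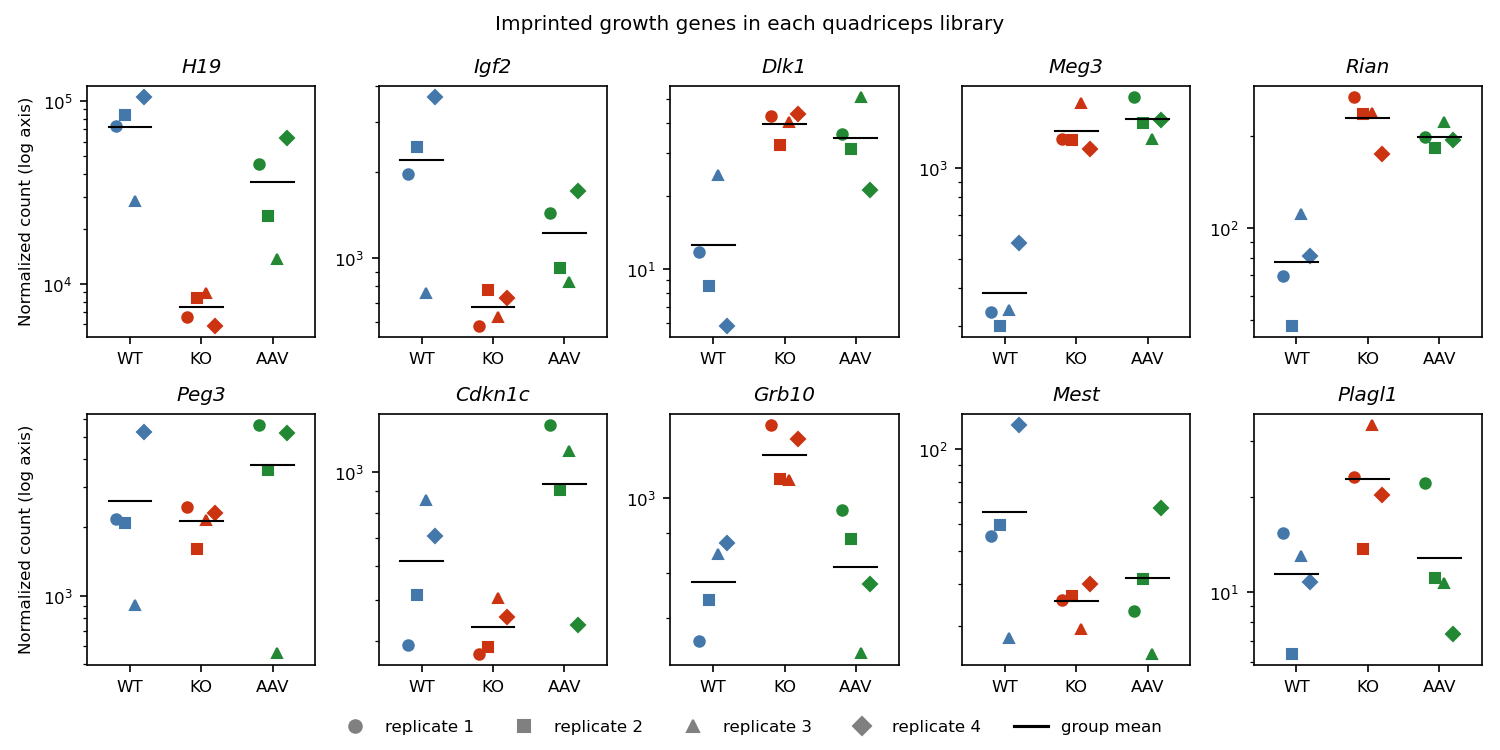
Normalized count (log axis, scaled separately for each gene) of the 10 imprinted growth genes in each of the 12 quadriceps libraries, by group, with symbols for replicates 1 to 4 and a black bar for the group mean. H19 lay between 5902 and 8931 in all KO libraries and at 13645.3 or above in all others, and Meg3 was at 565.7 or below in WT and at 1155.6 or above in KO and AAV libraries.

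Cdkn1c, farther along the same imprinted region, had another order of groups. It encodes p57, an inhibitor of cyclin-dependent kinases that restrains growth and is read from the maternal copy. Cdkn1c (ENSMUSG00000037664, chromosome 7, 143458339 to 143461050, minus strand) had 391.8, 513.4, 858.7 and 707.1 in WT, 374.9, 389.1, 505.8 and 457.1 in KO and 1284.5, 903.1, 1116 and 436.8 in AAV libraries. AAV 1 to 3 were above every other library, and AAV 4 lay within the KO range. By limma the log2 fold change was -0.46 ± 0.23 for KO against WT, 1.02 ± 0.29 for AAV against KO and 0.55 ± 0.35 for AAV against WT. With WT 2 and AAV 4 left out the values were -0.53, 1.34 and 0.81.

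The chromosome 12 genes had the opposite order in WT and KO libraries, and their AAV libraries overlapped the KO libraries. Meg3 (ENSMUSG00000021268, chromosome 12, 109541001 to 109571726, plus strand), a maternally read long noncoding RNA, had 333, 299.8, 339.3 and 565.7 in WT, 1254.1, 1237.4, 1651.1 and 1155.6 in KO and 1717.3, 1407.5, 1249.5 and 1449.1 in AAV libraries. The WT libraries lay below all 8 others. On the log2 scale, the fold change was 1.82 ± 0.21 for KO against WT, 0.14 ± 0.14 for AAV against KO and 1.96 ± 0.21 for AAV against WT, or 1.71, 0.14 and 1.85 without WT 2 and AAV 4.

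Rian, the next noncoding RNA downstream and a host of small nucleolar RNAs, was likewise lowest in WT libraries. Rian (ENSMUSG00000097451, chromosome 12, 109603940 to 109661716, plus strand) had 69.7, 47.8, 111.2 and 80.9 in WT, 267.6, 236, 237.1 and 175.1 in KO and 198.5, 182.2, 222 and 193.6 in AAV libraries. Again no WT library reached any KO or AAV library. Its log2 fold change was 1.60 ± 0.26 for KO against WT, -0.19 ± 0.16 for AAV against KO and 1.41 ± 0.25 for AAV against WT, or 1.39, -0.18 and 1.22 without WT 2 and AAV 4. The ratio of Meg3 to Rian normalized counts was 5.27 ± 1.74 in WT, 5.87 ± 1.08 in KO and 7.37 ± 1.27 in AAV libraries (SD, n = 4), and the ranges of the 3 groups overlapped.

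Dlk1, the paternally read gene of this domain, encodes a membrane protein related to Notch ligands that acts on precursors of fat and muscle. Its counts were low, with 6 to 49 reads per library. Dlk1 (ENSMUSG00000040856, chromosome 12, 109452823 to 109463336, plus strand) had 11.8, 8.5, 24.3 and 5.9 in WT, 42.5, 32.5, 40.2 and 43.3 in KO and 35.8, 31.2, 50.8 and 21.1 in AAV libraries. KO libraries were all above WT libraries, and AAV 4 was below WT 3. Its log2 fold change was 1.75 ± 0.39 for KO against WT, -0.24 ± 0.28 for AAV against KO and 1.50 ± 0.45 for AAV against WT, on a scale that understates differences of low genes. Leaving out WT 2 and AAV 4 gave 1.63, -0.03 and 1.60.

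Mirg, the last noncoding RNA of the domain, is not one of the 10 but was tested as one of the other imprinted genes. It lay between 8.5 and 16.3 in WT, 28.3 and 57 in KO and 26.2 and 60.6 in AAV libraries. By limma the log2 fold change was 1.63 ± 0.32 for KO against WT (adjusted p = 0.00757, limma with Benjamini-Hochberg adjustment over all genes), and Mirg was called in all 18 alternatives. For AAV against WT it was 1.73 ± 0.37 (adjusted p = 0.0568, limma), which missed the threshold, and for AAV against KO 0.10 ± 0.32 (adjusted p = 0.827, limma). The start sites of Meg3, Rian and Dlk1 are shown because these genes shared the order WT below KO. Each window holds 250 bases before and 50 after the RefSeq start on GRCm38.p6, plus strand, with CG pairs, the letters that imprinting marks by methylation, in capitals (Meg3 chr12:109540746-109541045, Rian chr12:109603695-109603994, Dlk1 chr12:109452573-109452872).
Meg3: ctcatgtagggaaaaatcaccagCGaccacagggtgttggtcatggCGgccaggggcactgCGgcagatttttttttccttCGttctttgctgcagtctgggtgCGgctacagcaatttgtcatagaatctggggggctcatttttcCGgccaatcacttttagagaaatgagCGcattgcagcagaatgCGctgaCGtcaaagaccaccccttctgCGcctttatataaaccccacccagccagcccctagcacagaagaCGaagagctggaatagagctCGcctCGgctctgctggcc
Rian: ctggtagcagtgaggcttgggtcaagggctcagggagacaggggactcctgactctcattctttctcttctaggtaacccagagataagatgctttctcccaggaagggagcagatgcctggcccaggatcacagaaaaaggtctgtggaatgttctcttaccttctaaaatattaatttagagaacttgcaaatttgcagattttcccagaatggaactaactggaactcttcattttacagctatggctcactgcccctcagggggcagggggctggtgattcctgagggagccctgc
Dlk1: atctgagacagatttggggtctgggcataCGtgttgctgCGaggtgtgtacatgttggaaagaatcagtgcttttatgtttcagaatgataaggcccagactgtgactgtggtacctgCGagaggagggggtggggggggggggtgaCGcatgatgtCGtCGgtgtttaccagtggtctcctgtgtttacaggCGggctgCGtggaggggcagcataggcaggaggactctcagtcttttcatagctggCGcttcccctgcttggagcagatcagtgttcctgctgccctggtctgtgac
The table holds a second Meg3 window (chr12:109545148-109545447) with 1 CG pair, not printed here. The Meg3 window shown holds 13 CG pairs, the Dlk1 window 9 and the Rian window 0, and the median over 32851 mouse windows of this length was 7. Methylation was not measured. Of the members, 8 had such windows, 15 in all. The letters GGGGCCCC, to which the Plagl1 protein is reported to bind, read the same on both strands, occurred in 1.08% of all windows and among the members' windows in 1, that of Peg3. CAGCTG, an E-box bound by MyoD and also the same on both strands, occurred in 16.3% of all windows and in 1 of Mest.

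**Figure D2:**
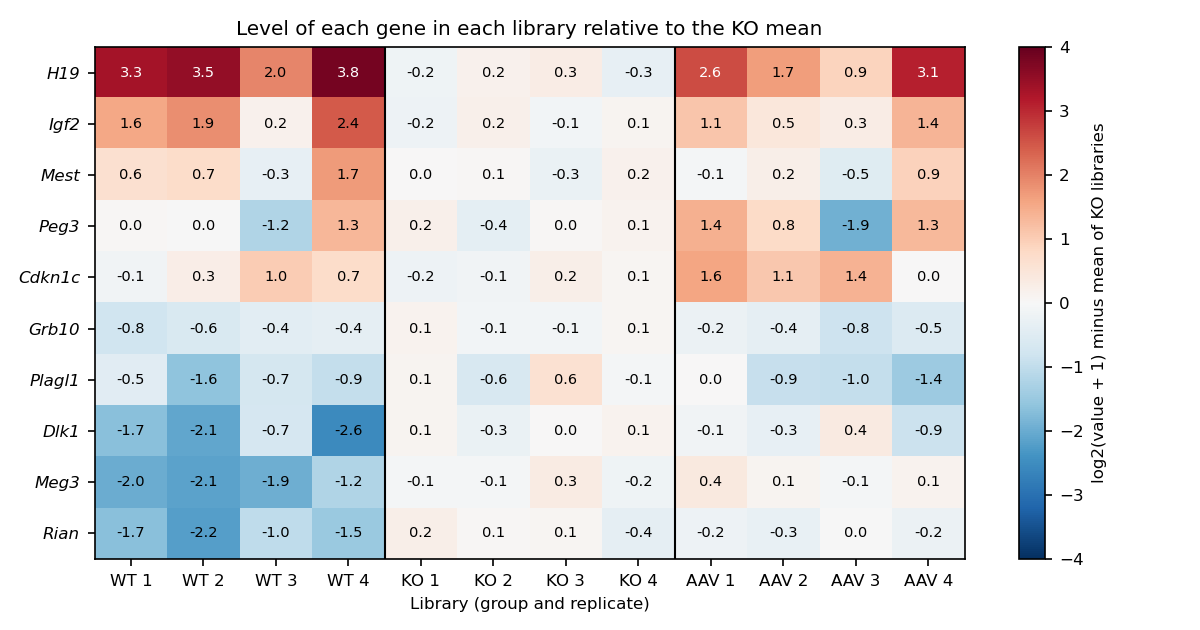
Level of each gene (rows) in each library (columns) as log2(value + 1) minus the mean of the 4 KO libraries, with red above and blue below that mean. H19 was 2.0 to 3.8 above the KO mean in WT and 0.9 to 3.1 above it in AAV libraries, while Meg3 was 1.2 to 2.1 below it in WT and within 0.4 of it in AAV libraries.

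The remaining members had no common order of groups. Grb10 encodes an adaptor that dampens signalling from the insulin and IGF1 receptors. Grb10 (ENSMUSG00000020176, chromosome 11, 11930508 to 12038683, minus strand) had 655.1, 738.8, 846.5 and 873.8 in WT, 1239.6, 1057.8, 1052.9 and 1189.2 in KO and 964.8, 884, 630.7 and 774.5 in AAV libraries. KO libraries lay above all 8 others, and WT and AAV libraries overlapped. On the log2 scale, the fold change was 0.55 ± 0.13 for KO against WT and -0.49 ± 0.14 for AAV against KO, both smaller than the size of 1 used for a call. Leaving out WT 2 and AAV 4 gave 0.53 and -0.48.

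Peg3, a zinc finger protein read from the paternal copy and found in muscle progenitors, varied most of the 10 among WT and among AAV libraries. Peg3 (ENSMUSG00000002265, chromosome 7, 6703892 to 6730431, minus strand) had 2166.3, 2094.2, 911.5 and 5242.1 in WT, 2443.5, 1600, 2158 and 2321 in KO and 5628.7, 3565, 556.3 and 5222.6 in AAV libraries. The highest AAV library was 10.1 times the lowest, against 1.53 times among KO libraries. Its log2 fold change was -0.04 ± 0.42 for KO against WT and 0.39 ± 0.62 for AAV against KO. Without AAV 3 the latter was 1.16 and passed both thresholds. Leaving out WT 2 and AAV 4 gave -0.05 and 0.09.

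Mest, a paternally read gene of the alpha/beta hydrolase family, was low in quadriceps. Mest (ENSMUSG00000051855, chromosome 6, 30723547 to 30748465, plus strand) had 55.2, 59.5, 27.6 and 118 in WT, 35.7, 36.8, 29.4 and 39.8 in KO and 33.1, 41.3, 24.8 and 67 in AAV libraries, and all groups overlapped. By limma the log2 fold change was -0.69 ± 0.38 for KO against WT, and -1.03 without WT 3, which then passed both thresholds. It was 0.14 ± 0.30 for AAV against KO. With WT 2 and AAV 4 left out the values were -0.67 and -0.12, the latter of the other sign. Copg2, on the opposite strand, overlaps Mest, and whether strand was used in counting was not given in the sources used here.

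Plagl1, a zinc finger transcription factor that acts on other imprinted genes, was the lowest member, with 6 to 31 reads per library. Plagl1 (ENSMUSG00000019817, chromosome 10, 13060504 to 13131694, plus strand) had 15.4, 6.4, 13 and 10.7 in WT, 23.2, 13.7, 33.7 and 20.3 in KO and 22.1, 11.1, 10.6 and 7.3 in AAV libraries. KO 1, 3 and 4 stood above all WT libraries, and KO 2 lay within the WT range. By limma the log2 fold change was 0.93 ± 0.37 for KO against WT and -0.82 ± 0.39 for AAV against KO, or 0.70 and -0.61 without WT 2 and AAV 4.

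**Figure D3:**
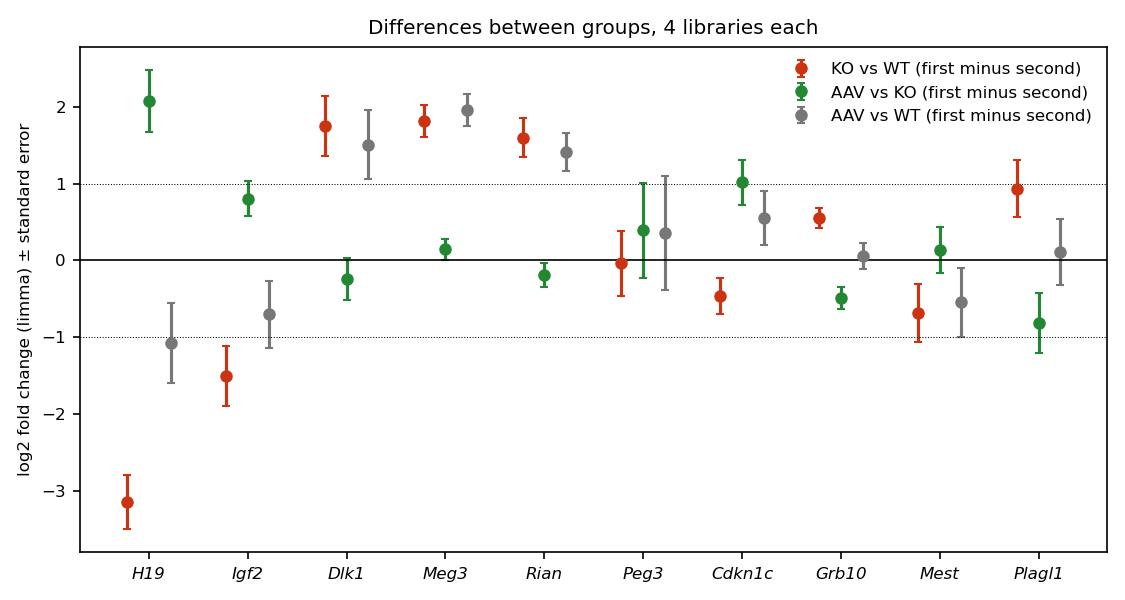
The log2 fold change (y axis) with its standard error for each of the 10 genes (x axis) in KO against WT, AAV against KO and AAV against WT, with 4 libraries a group and dotted lines at 1 and -1. H19 was at -3.15 and 2.07 in the first and second comparisons, and Meg3 at 1.82 and 0.14.

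A gene was called when its adjusted p was below 0.05 and its log2 fold change at least 1 in size. In KO against WT 5 of the 10 were called, where 13.9% of 14859 genes were. Dlk1, Meg3 and Rian were called higher, as were 5.43% of all genes, and H19 and Igf2 lower, as were 8.5%. In AAV against KO, H19 and Cdkn1c were called, both higher, where 8.98% of 14894 genes were called and 5.43% higher. In AAV against WT, Meg3 and Rian were called, both higher, where 0.951% of 14939 genes were called and 0.73% higher. The groups did not overlap for 5, 3 and 2 members, where 28.3%, 30.6% and 11.7% of all genes did not overlap. The median log2 fold change of the 10 was 0.26, 0.14 and 0.23 in the 3 comparisons, and that of all genes tested 0.02, 0.04 and -0.03. These members were chosen with the comparisons known, so the counts describe the choice. H19, Meg3 and Rian passed in KO against WT in 18 of 18 alternative runs. Dlk1 passed in 17 of 17, being too low to be tested at a minimum value of 50. Igf2 did so in 13 of 18, missing on leaving out any 1 of WT 2, WT 4, KO 1 or KO 3. In AAV against KO, H19 passed in 18 of 18 and Cdkn1c in 12 of 18, missing on leaving out any 1 of KO 1, 2, 4 and AAV 1, 2 or 3. In AAV against WT, Meg3 passed in 17 of 18 and Rian in 10 of 18, missing on leaving out any 1 of WT 1, 2, 4 or AAV 1, 2, 3, 4. Dlk1, not called there at 1.50, passed with all 12 libraries in one fit, at 1.50, and without WT 3, at 1.86. Without both WT 2 and AAV 4, neither passed, at log2 fold changes of 1.85 and 1.22, and 10 genes in all passed.

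Per kilobase of exon, a scale on which genes can be compared, H19 was the highest member in every group, at 29423 ± 13051 in WT, 3023 ± 582 in KO and 14743 ± 8948 in AAV libraries (mean ± SD, n = 4). Igf2 stood second in WT at 387 ± 210 per kb, next to Cdkn1c at 303 ± 101, and these neighbours did not differ beyond their spread. In KO libraries Cdkn1c stood second at 212 ± 29.9, and Igf2, at 118 ± 15.9, came after Peg3 at 160 ± 28 and Grb10 at 125 ± 10.4. The KO ranges of Igf2, Peg3 and Grb10 overlapped, so their order is not firm. Meg3 was at 21.3 ± 6.75 per kb in WT, 73.2 ± 12.3 in KO and 80.5 ± 10.7 in AAV libraries. Plagl1 was lowest throughout, at 1.45 ± 0.49, 2.91 ± 1.07 and 1.63 ± 0.819. The normalized count of H19 was 191.6 ± 81.6 times that of Meg3 in WT, 5.63 ± 0.754 times in KO and 24.3 ± 14.2 times in AAV libraries, with no overlap between groups.

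Several members were high or low in the same libraries of the WT and AAV groups. H19, Igf2, Peg3 and Mest were each lowest in replicate 3 of both groups. H19, Igf2 and Mest were highest in replicate 4 of both groups, and Dlk1 was highest in replicate 3 and lowest in replicate 4 of both. The highest WT library was 3.68 times the lowest for H19, 4.83 times for Igf2 and 4.28 times for Mest. In KO libraries the same ratios were 1.51, 1.34 and 1.35. The replicates are different animals, and what a shared number stands for was not given in the sources used here.

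Markers of regenerating or fetal fibres were lower in KO than in WT libraries, though WT 3 lay within the KO range. The 7 markers, among them the developmental myosins Myh3 and Myh8, were all called lower in KO against WT, where 8.5% of all genes were, with a median log2 fold change of -2.47. Of the 7, 3 were called higher in AAV against KO, where 5.43% of all genes were. Their summed normalized count was 16784, 21161, 3223 and 17768 in WT 1 to 4, where WT 3 was lowest as for H19, but WT 2 and not WT 4 was highest. It was 3733, 2313, 2122 and 3738 in KO 1 to 4, the reverse of the order of H19 in these libraries. It was 6795, 3578, 3581 and 13589 in AAV 1 to 4, highest in AAV 4 as for H19, with AAV 2 and AAV 3 nearly level at the bottom. Of 7 macrophage markers, 4 were called lower in KO against WT, beside the same 8.5%, and their sum was 1371 to 4221 in WT, 752 to 1387 in KO and 805 to 3713 in AAV libraries, lowest in WT 3 and AAV 3. Of 7 endothelial markers 2 were called higher in KO against WT, as were 5.43% of all genes, with sums of 2814 to 6956 in WT, 6459 to 8556 in KO and 6312 to 10582 in AAV libraries. Of 5 blood markers 2 (Hba-a1 and Hba-a2) were called higher in AAV against KO, as were 5.43% of all genes, with sums of 1342 to 1896 in WT, 188.2 to 1988 in KO and 1477 to 4052 in AAV libraries. Of the 8 muscle fibre markers, 2, the myosins Myh1 and Myh2, were called lower in KO against WT and higher in AAV against KO, beside 8.5% and 5.43% of all genes. The other 6 were not called, the list's median log2 fold change was -0.03 in KO against WT, and its sum, to 6 digits, was 4847600 to 6150960 in WT, 5647020 to 6454200 in KO and 3939150 to 6410160 in AAV libraries. Of 5 Schwann cell markers 1 (Cdh19) was called higher in KO against WT, beside 5.43% of all genes. Of 9 fibro-adipogenic progenitor and fibroblast markers and 6 adipocyte markers, 0 were called in each comparison, beside 13.9%, 8.98% and 0.951% of all genes. The former summed to 17162.7 to 23900.5 in WT, 15930.5 to 28723.5 in KO and 16333.3 to 25808.5 in AAV libraries. The adipocyte markers had a median log2 fold change of 1.34 in KO against WT. They summed to 107.3 to 766.4 in WT, 236.7 to 2863 in KO and 299.2 to 623.6 in AAV libraries, highest in KO 3. None of these markers was at 0 in any library. The 8 satellite cell and myoblast markers summed to 2122 to 3814 in WT, 1799 to 2306 in KO and 1954 to 3004 in AAV libraries. Of the 8, 1 (Myog) was called lower in KO against WT, or 12.5%, near the 8.5% of all genes. In RNA from whole muscle, fewer cells of a type and less RNA per cell cannot be told apart, and the part of these cells in the levels of H19 and the other members was not tested.

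The genes whose log2 values over the 12 libraries were most like those of H19 were Gltp (Pearson r = 0.996), Fgfrl1 (0.990), Smim3 (0.988), Spsb2 (0.987) and Runx1 (0.986), among 11070 genes with a mean of at least 50. These values include the difference between groups. When each group's mean was subtracted, the 5 most alike were Cchcr1 (0.986), Gltp (0.985), Eno2 (0.979), C1qc (0.978) and Cspg4 (0.978), each point being 1 whole-muscle library with its own depth and mix of cells. Gltp, a glycolipid transfer protein, had normalized counts of 857.5 ± 266.4 in WT, 194.6 ± 26.3 in KO and 572 ± 249.2 in AAV libraries. By ranks, 3 of the first 5 (Gltp, Fgfrl1 and Runx1) were the same. Of the other members Igf2 was most like H19, at rank 322, with r = 0.922 over the libraries and 0.880 within groups.

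The genes next to H19 were also read in every library. Of the 4 genes tested that start within 100 kb of H19 or Igf2, limma, edgeR with TMM scaling and DESeq2 called 0 in each of the 3 comparisons, with 0, 1 and 1 at an unadjusted p under 0.05 by limma. Among all genes limma called 13.9%, 8.98% and 0.951%, and 4 genes are too few to tell 0 from these shares. Nctc1, a noncoding RNA whose start is 19.5 kb from that of H19, had normalized counts of 5668 ± 1756 in WT, 6829 ± 899 in KO and 9456 ± 2290 in AAV libraries, with log2 fold changes of 0.32 ± 0.22 for KO against WT and 0.45 ± 0.17 for AAV against KO. Mrpl23, a mitochondrial ribosomal protein gene at 45.5 kb, had 0.47 ± 0.43 and 0.44 ± 0.32. Gm14492, at 71.4 kb, had 0.22 ± 0.13 and 0.20 ± 0.16. Tnnt3, fast troponin T at 79.3 kb, had 0.34 ± 0.21 and -0.13 ± 0.31. Within 500 kb of any member, 9 of 57 neighbours (15.8%) were called in KO against WT, near the 13.9% of all genes. Of these, 1 was higher and 8 lower, beside 5.43% and 8.5% of all genes, and Mirg, Cd81 and Cobl are also counted among the other imprinted genes. In AAV against KO 4 of 58 (6.9%) were called beside 8.98%, and in AAV against WT 0 of 57 beside 0.951%. In the latter, 9 had an unadjusted p under 0.05 by limma, and edgeR called 0 and DESeq2 2. Begain, singled out after its values were seen, starts 384.6 kb from Dlk1 and went the other way from it, at -2.30 ± 0.45 for KO against WT (adjusted p = 0.00731, limma) and 2.27 ± 0.65 for AAV against KO (adjusted p = 0.031, limma). The latter call was held in 10 of 18 alternatives. It was lost with the replicate number as a block, on leaving out any 1 of KO 1, 2, 3, 4, AAV 1 or AAV 4, and without both WT 2 and AAV 4.

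**Figure D4:**
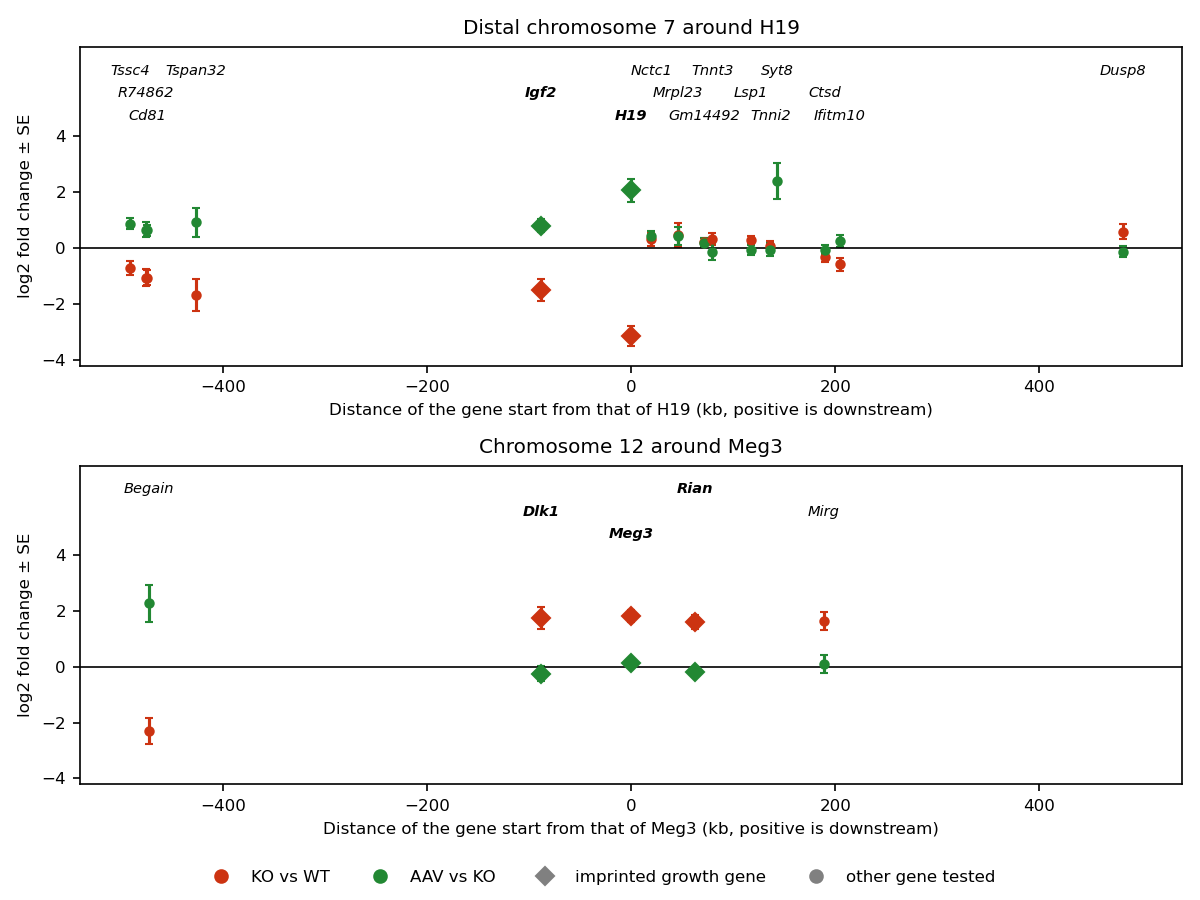
The log2 fold change ± SE of every gene tested (y axis) against the distance of its start from that of H19 (upper panel) or Meg3 (lower panel) in kb, with diamonds for the imprinted growth genes, red for KO against WT and green for AAV against KO. Genes within 100 kb downstream of H19 lay between 0.22 and 0.47 in KO against WT, where H19 was at -3.15.

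Other imprinted genes were tested to see whether they differed with the members. Of 58 listed, 43 were in the tables. In KO against WT 3 of 37 tested rose, 3 fell and 31 did not pass, so that 16.2% were called beside 13.9% of all genes. The risers were Slc38a4, an amino acid transporter, at 1.55 ± 0.27 (adjusted p = 0.00425, limma), Mirg, given above, and Asb4, an ankyrin-repeat adaptor of a ubiquitin ligase, at 1.34 ± 0.27 (adjusted p = 0.00814, limma). These 3 passed in all 18 alternatives. The fallers were Peg10, a gene derived from a retrotransposon, at -1.27 ± 0.37 (adjusted p = 0.0311, limma), the tetraspanin gene Cd81 at -1.06 ± 0.27 (adjusted p = 0.0186, limma) and the actin nucleator Cobl at -1.01 ± 0.14 (adjusted p = 0.00164, limma). Cobl was not called on leaving out any 1 of WT 2, KO 2 or KO 3, Cd81 on leaving out any 1 of WT 1, 2 or 4, and Peg10 on leaving out any 1 of WT 1, 2, 4 or KO 1, 2, 3.

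In AAV against KO 2 of 40 other imprinted genes (5%) were called, beside 8.98% of all genes. Slc38a4 lay between 889 and 1948 in WT, 3304 and 4391 in KO and 730 and 2157 in AAV libraries, and fell by 1.88 ± 0.30 on the log2 scale (adjusted p = 0.00464, limma). Inpp5f, an inositol phosphatase, rose by 1.16 ± 0.20 (adjusted p = 0.00592, limma). Both passed in all 18 alternatives. In AAV against WT limma called 0 of 39, beside 0.951% of all genes, with 9 at an unadjusted p under 0.05, edgeR called 0 and DESeq2 1. Gnas, a highly read imprinted gene of G protein signalling, had log2 fold changes of -0.18 ± 0.13 for KO against WT and -0.01 ± 0.14 for AAV against KO. The median log2 fold change of the list was 0.00 in KO against WT, 0.12 in AAV against KO and 0.06 in AAV against WT.

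The IGF axis, in which Igf2 acts, had 19 of 21 listed genes in the tables, with Igf2r also among the other imprinted genes. In KO against WT 4 of 19 rose, 1 fell and 14 did not pass, or 26.3% called beside 13.9% of all genes (5.43% higher and 8.5% lower). Igfals, which stabilizes circulating IGF complexes, rose by 2.44 ± 0.29 (adjusted p = 0.00085, limma). Igf2bp3, an RNA-binding protein that binds the Igf2 transcript, rose by 2.27 ± 0.53 (adjusted p = 0.0137, limma), from 2.1 to 17.9 in WT to 23.2 to 48.6 in KO libraries. Igfbp3, a binding protein of both IGFs, rose by 1.38 ± 0.33 (adjusted p = 0.0152, limma).

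Igf1, the postnatal growth factor of muscle, lay between 79.7 and 352.2 in WT, 430.6 and 652.6 in KO and 252.7 and 326.6 in AAV libraries. It rose by 1.41 ± 0.40 in KO against WT (adjusted p = 0.0279, limma), a call lost on leaving out any 1 of WT 1, WT 2 or KO 1, 2, 3. Igf1 and Igf2 thus lay in opposite directions in KO against WT. Igf2bp2, which also binds the Igf2 transcript, fell by 1.17 ± 0.34 (adjusted p = 0.0299, limma), a call held in 12 of 18 alternatives and lost with all 12 libraries in one fit and on leaving out any 1 of WT 1, WT 4 or KO 2, 3, 4. The receptor genes were not called, with log2 fold changes of -0.08 ± 0.16 for Igf1r and -0.07 ± 0.13 for Igf2r, while Insr had 0.92 ± 0.20.

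In AAV against KO, Igfals fell by 2.19 ± 0.29 on the log2 scale (adjusted p = 0.00215, limma) and Igf2bp3 by 1.86 ± 0.45 (adjusted p = 0.0172, limma), 2 of 18 tested (11.1%), near the 8.98% of all genes. Of the libraries left out in turn, KO 4 ended the call of Igf2bp3 (-1.64, adjusted p = 0.0559, limma). Igf1 had -0.92 ± 0.16, under the size of 1 used for a call. In AAV against WT limma called 0 of 19, beside 0.951% of all genes, with 4 at an unadjusted p under 0.05, edgeR called 0 and DESeq2 1.

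Genes that set or keep imprints were called at about the rate of all genes in KO against WT. Of 18 in the tables, 1 rose and 1 fell (11.1%), near the 13.9% of all genes. Zfp445, a zinc finger protein that protects imprints, rose by 1.03 ± 0.20 (adjusted p = 0.00698, limma), and passed in 10 of 18 alternatives, with log2 fold changes of 0.88 to 1.20, the call being lost with edgeR and DESeq2 and on leaving out any 1 of WT 2, WT 4, KO 1 or KO 3. Tet1, an enzyme that oxidizes methylated cytosine, fell by 1.25 ± 0.25 (adjusted p = 0.00766, limma), from 38.1 to 59.7 in WT to 15.5 to 25.6 in KO libraries, and passed in all 18. Ctcf, whose protein binds the control region between Igf2 and H19, had 0.30 ± 0.16 and Dnmt1, the maintenance methyltransferase, -0.32 ± 0.20, and neither was called. Limma called 0 of 18 in AAV against KO and 0 of 18 in AAV against WT, beside 8.98% and 0.951% of all genes, with 5 and 5 at an unadjusted p under 0.05, and edgeR with TMM scaling and DESeq2 called 0 in both, while edgeR with total counts called 1 in AAV against KO.

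**Figure D5:**
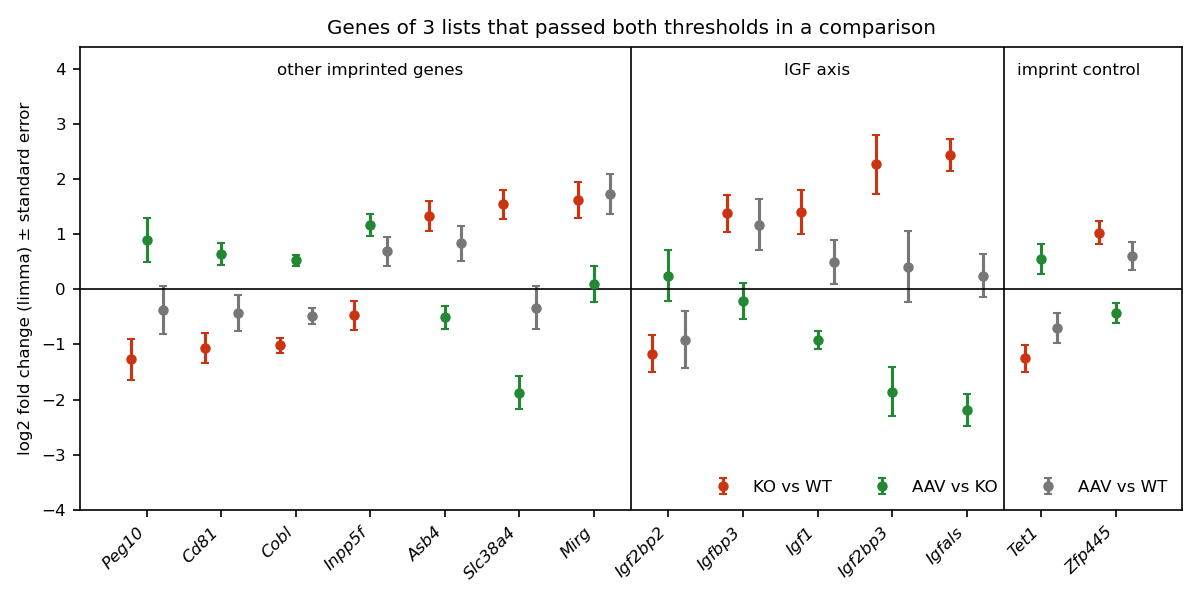
The log2 fold change ± SE (y axis) of every other imprinted gene, IGF axis gene and imprint control gene (x axis) that passed both thresholds in KO against WT or AAV against KO, with 4 libraries a group. Igfals was at 2.44 in KO against WT and -2.19 in AAV against KO, while Mirg was at 1.63 and 0.10.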

How the data were processed

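RNA was sequenced from quadriceps of 12 mice, 4 per group, and groups were taken from the sample labels. Per the submitters' processing notes and the study's methods, the authors trimmed reads with Trim Galore 0.4.1, checked them with FastQC 0.11.2, aligned them with STAR to mouse GRCm38, counted uniquely placed reads by gene with HTSeq 0.6.1 and dropped genes that reached 10 reads in no library. The deposited signal is the count per gene divided by a DESeq2 1.16.1 size factor. Such scaling sets aside any overall difference in RNA per library, and reads shared between gene copies were dropped. The deposited tables also hold the authors' own log2 fold change and its standard error, Wald score, p-value and adjusted p-value, none of which was used, and 0 per-sample columns were left out. The values of the KO libraries differed by 0 between the tables, so all groups share a scale.

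Every value was a multiple of 1 step per library, so that 100% of values gave whole reads (tolerance 0.1). Tests fitted for counts were planned if the values were raw. As they are normalized, limma 3.58.1 (R 4.3.3) with a trend on log2(value + 1) was fitted for each pair of groups using genes that reached a value of 10 in 1 or more of the 8 libraries. P-values were adjusted by Benjamini-Hochberg, and calls needed an adjusted p below 0.05 with a log2 fold change of 1 or more in size. The fit was tested on simulated data. Alternatives were edgeR 4.0.16 and DESeq2 1.42.0 on the recovered reads, other scalings, filters and a pseudocount of 0.1, all 12 libraries in one fit, the replicate number as a block, each library left out in turn, and both WT 2 and AAV 4 left out. Positions, exon lengths and neighbours are from GENCODE M21 on GRCm38, which held 15186 of the 15344 identifiers. P-values from limma set each difference in group means against the spread between these animals, moderated by a trend over all genes.

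The members and lists were chosen with earlier results of these data known. Named genes were the 10 members, Gaa, the called genes of each list (at most 6 with the largest change), neighbours within 100 kb of H19 or Igf2, and the 5 genes most like H19 by each measure. Other genes were named as background or as singled out after their values were seen. The counted reads per library, from 22122233 to 47379737, limit the precision for Dlk1 and Plagl1.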

Additional observations from a re-analysis of the deposited data

Results flagged for a closer look

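Each of the 10 members and Gaa was examined in each group for a library far from the others, 33 groups in all, and chance alone marks about 1 in 20 groups. Meg3 in WT replicate 4 had a normalized count of 565.7, against 299.8 to 339.3 in the other WT libraries, which is still below the lowest KO library. Gaa in WT replicate 2 was at 14640, against 323.8 to 460.3 in the other WT libraries, and Gaa in AAV replicate 4 was at 9854, against 499.6 to 946.8. The cause was not tested for any of the 3.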

How the results depend on the processing

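Across the alternatives, all 536 log2 fold changes of members lay within 1 SD of the value reported, and no called value changed sign. Under total-count scaling the median of all genes was 0.23 (edgeR) and 0.21 (total-scaled reads under limma) in AAV against KO, and 0.12 in AAV against WT under both, against 0.04 and -0.03 as reported, and Igf2 then passed in AAV against KO with edgeR, at 1.07. In KO against WT, the imprint control genes called numbered 1 with DESeq2, edgeR with TMM and edgeR with total counts. Leaving out both WT 2 and AAV 4 gave 1332 genes, 3 other imprinted, 1 imprint control and 5 neighbours, and the 200 kb distance gave 3 neighbours. In AAV against KO, total counts and total-scaled reads under limma each gave 1 imprint control gene, a minimum of 50 gave 1 IGF axis gene and 2 neighbours, all 12 libraries in one fit and the 200 kb distance gave 2 neighbours, and leaving out AAV 4 gave 1. In AAV against WT, DESeq2 gave 406 genes, 1 other imprinted, 1 IGF axis and 2 neighbours. One fit of all 12 gave 398, 1, 1 and 2, edgeR with total counts 231 and total-scaled reads under limma 250 genes. Leaving out WT 2 and AAV 4 gave 10 genes and 0 members.

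Leaving out each library in turn gave 1332 (without WT 2) to 3238 (without WT 3) genes in KO against WT, 4 to 6 members, 3 to 9 other imprinted, 3 to 7 IGF axis, 1 to 3 imprint control and 5 to 15 neighbours. In AAV against KO it gave 787 to 1966 genes, 1 to 2 members, 2 to 4 other imprinted, 2 to 2 IGF axis, 0 to 2 imprint control and 0 to 5 neighbours. In AAV against WT it gave 18 to 330 genes, 1 to 3 members, 0 to 0 other imprinted, 0 to 0 IGF axis, 0 to 1 imprint control and 0 to 1 neighbours. Causes were not tested.

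Same-numbered libraries did not deviate together in every pair, with r from -0.11 to 0.03 in KO against WT, from -0.18 to 0.06 in AAV against KO and -0.07, -0.35, 0.55 and 0.48 for numbers 1 to 4 in AAV against WT, where numbers 3 and 4 correlated best with their own number and 1 and 2 did not. The numbers were therefore not used as pairs. With the replicate block 1830, 1003 and 120 genes were called in the 3 comparisons, with 1 IGF axis gene in AAV against KO, Igf2bp3 missing at -1.86 (adjusted p = 0.0507, limma), 1 neighbour there and 1 other imprinted gene and 1 neighbour in AAV against WT.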
